A study of Mus musculus with 36 samples.

Results

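The genes described here were 8 transcription factors of the mesenchyme and of epithelial-mesenchymal transition, Snai1, Snai2, Twist1, Twist2, Zeb1, Zeb2, Prrx1 and Prrx2, in the fetal mouse mammary gland. Members were taken as probe sets annotated to exactly 1 of these symbols, and the probe set with the highest mean over all 36 arrays stood for its gene. All 8 genes had such a probe set, 21 probe sets together, among 18194 symbols and 45101 probe sets on the array. Epithelium and peri-ductal stroma, the connective tissue directly around the ducts, were laser-captured from the fourth inguinal gland of E19 female fetuses on a C57BL/6 background, and RNA was hybridised to an Affymetrix whole-genome mouse array. Fetuses lacked the estrogen receptor ERα (ER-alpha KO, here KO) or were wild type (WT), and in both genotypes the dams received 250 ng/kg/day bisphenol A (BPA), an estrogenic plastic monomer, 10 ng/kg/day 17alpha-ethynylestradiol (EE2), a synthetic estrogen, or vehicle alone from E8 until E19. These 2 compartments, 2 genotypes and 3 exposures gave 12 groups of 3 arrays, with 3 litters to a group according to the methods. These took 1 fetus of either genotype from a treated litter, so that the KO and WT groups of an exposure may share litters, which the labels do not identify. All litters came from heterozygous parents, and the KO was not limited to a compartment. The stroma as captured holds fibroblasts, vessels, fat precursors and leukocytes together, and in such bulk captures fewer cells of a type and less RNA per cell cannot be told apart.

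Snail and slug (encoded by Snai1 and Snai2) are zinc-finger proteins, Zeb1 and Zeb2 carry zinc-finger clusters around a homeodomain, Twist1 and Twist2 are basic helix-loop-helix proteins that bind DNA as dimers, and Prrx1 and Prrx2 are paired-related homeodomain proteins. The snail and ZEB proteins are known as repressors that bind E-boxes in the promoters of adhesion, polarity and junction genes of epithelia, while the Twist and Prrx proteins are best known from embryonic mesenchyme of the head and limb. In the breast, Snai2 is also known from basal and progenitor epithelial cells, and the others mostly from stroma or from tumour cells that have lost epithelial traits.

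The E-box bound by snail and ZEB proteins reads CAGGTG, or CACCTG on the other strand, and was searched on both strands in the 250 bases before the annotated transcription start (RefSeq, mouse build GRCm38.p6). Among 20 epithelial genes listed as targets or as markers lost in the transition, 16 had a promoter in the table and 10 of them (62.5%) held at least 1 such E-box, against 19.4% of all 27025 genes with a promoter. Of 7 regulators of the epithelial state with a promoter 4 held one (57.1%), and of 14 mesenchymal genes with a promoter none did (0.0%). Cdh1 had no promoter in the table. The epithelial genes were listed in part because they are known targets of these factors, so their share is a description and not a test. The promoters of 5 junction and polarity genes that were among the epithelial genes measured below are shown because they hold the letters these factors read, with the E-box in capitals and each sequence running 5′ to 3′ towards the start:
Crb3 (chr17:57061951-57062200, plus strand): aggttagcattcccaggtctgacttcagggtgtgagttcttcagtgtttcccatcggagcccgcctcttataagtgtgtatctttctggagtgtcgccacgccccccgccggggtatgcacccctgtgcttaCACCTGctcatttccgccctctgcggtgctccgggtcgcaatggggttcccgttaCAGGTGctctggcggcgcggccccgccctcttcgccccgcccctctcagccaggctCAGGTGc
Cldn7 (chr11:69965171-69965420, plus strand): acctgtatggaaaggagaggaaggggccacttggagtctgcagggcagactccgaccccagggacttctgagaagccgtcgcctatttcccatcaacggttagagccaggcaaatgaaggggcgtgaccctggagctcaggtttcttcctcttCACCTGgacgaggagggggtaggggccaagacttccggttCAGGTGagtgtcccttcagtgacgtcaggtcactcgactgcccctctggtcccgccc
Ocln (chr13:100552499-100552748, minus strand): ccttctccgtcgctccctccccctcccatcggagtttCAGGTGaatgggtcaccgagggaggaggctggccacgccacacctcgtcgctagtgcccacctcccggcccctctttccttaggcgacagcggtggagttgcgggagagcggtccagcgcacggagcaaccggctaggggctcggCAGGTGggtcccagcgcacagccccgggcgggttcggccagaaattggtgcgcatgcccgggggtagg
Epcam (chr17:87635729-87635978, plus strand): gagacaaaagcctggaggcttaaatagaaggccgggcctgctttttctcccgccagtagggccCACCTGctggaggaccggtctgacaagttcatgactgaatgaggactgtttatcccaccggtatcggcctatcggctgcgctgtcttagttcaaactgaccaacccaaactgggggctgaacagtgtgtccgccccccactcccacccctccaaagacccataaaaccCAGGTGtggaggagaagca
Cldn4 (chr5:134946935-134947184, minus strand): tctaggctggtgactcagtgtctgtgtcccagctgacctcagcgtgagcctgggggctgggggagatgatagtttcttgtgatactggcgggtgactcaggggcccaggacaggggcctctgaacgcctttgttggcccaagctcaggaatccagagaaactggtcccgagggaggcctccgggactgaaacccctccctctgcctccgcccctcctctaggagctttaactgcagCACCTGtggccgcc

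Crb3, an apical polarity protein, held 3 E-boxes, which began 118, 63 and 7 bases before the start. Cldn7, a claudin, held 2 of them at 97 and 57 bases, Ocln, encoding occludin, 2 at 213 and 68 bases, the adhesion molecule Epcam 2 at 187 and 19 bases, and Cldn4 1 at 14 bases. Of the factors themselves 6 had a promoter in the table, and only that of Snai1 held the motif, 126 bases before the start, shown for that reason:
Snai1 (chr2:167537945-167538194, plus strand): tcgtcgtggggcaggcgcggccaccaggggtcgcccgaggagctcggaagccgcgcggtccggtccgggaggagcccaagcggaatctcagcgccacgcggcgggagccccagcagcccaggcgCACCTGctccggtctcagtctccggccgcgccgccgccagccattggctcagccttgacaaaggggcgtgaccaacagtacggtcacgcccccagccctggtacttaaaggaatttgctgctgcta
A match describes letters in a window and not a bound site.

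Signal is the deposited linear array value, which has no unit, and changes are differences of log2 signal. The highest array median was 44.1 among stroma arrays and 66.8 among epithelium arrays. The 3 dimmest arrays, stroma WT vehicle 2, stroma WT BPA 3 and epithelium WT vehicle 2, came from 2 replicate numbers, WT vehicle 2 and WT BPA 3. Epithelial markers separated the compartments, with all 12 of 12 lower in the stroma, and 10 of 12 fibroblast markers were higher there. Markers of several other cell types moved the same way, but not of all. All 10 of 10 endothelial markers were called higher in the stroma (median change 2.09, summed signal 1346 to 7813 in stroma and 87.0 to 5184 in epithelium), as were 8 of 10 leukocyte markers (1.96, 10447 to 25440 in stroma and 1125 to 6951 in epithelium). So were 5 of 5 mast cell markers (2.40, 3212 to 9303 in stroma and 106.7 to 4584 in epithelium) and 7 of 7 adipocyte markers (2.08, 15994 to 44504 in stroma and 2497 to 40256 in epithelium). Smooth muscle and pericyte markers were called higher in 4 of 6 cases, erythroid markers in 2 of 4 and skeletal muscle markers in 1 of 10. Schwann and neural crest markers were called lower in 2 of 5 cases and higher in 0, and melanocyte markers lower in 4 of 6 and higher in 0. None of 6 markers of keratinised epidermis was called. Summed skeletal muscle markers reached 33429 in stroma WT EE2 2, 29063 in stroma KO EE2 3 and 22360 in stroma KO BPA 1. They reached 17021 in epithelium KO EE2 3 and 11519 in epithelium KO BPA 1, against at most 1739 on any other array. The ratio of 3′ to 5′ Gapdh signal, a sign of RNA integrity, was 6.01 to 20.8 (mean 11.9) in the stroma and 5.09 to 12.9 (mean 8.60) in the epithelium. The methods report lower ratios of this kind for housekeeping genes, on signals whose scaling may differ. The reason for the gap was not tested. The epithelium was not free of fibroblast transcripts: the collagen genes Col1a1, Col1a2 and Col3a1 exceeded a signal of 100 in 18 of 18 epithelium arrays, and the summed signal of the 12 fibroblast markers was 31398 to 54726 in the stroma and 8457 to 33088 in the epithelium. Esr1, encoding ERα, had a signal of 13.9 to 81.8 (median 37.6) in KO stroma and 20.3 to 396.7 (median 114.5) in WT stroma at its brightest probe set, so that the ranges overlapped. Whether its probe sets lie in the deleted part was not established.

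The first question was how the members differed between stroma and epithelium. Of the 8 genes, 6 (Zeb2, Twist2, Prrx2, Zeb1, Twist1 and Prrx1) had a 3.31- to 8.03-fold higher signal in peri-ductal stroma than in ductal epithelium, and none had a lower one, while the difference of Snai1 and Snai2 did not pass the adjusted threshold. The 8.03-fold was that of Prrx2, whose size rests on low signals, as described below. A gene was called when its Benjamini-Hochberg adjusted p from limma, over all 45101 probe sets and with stroma and epithelium of equal number in a group taken as 1 gland, was under 0.05. Over all probe sets 4.51% were called higher and 16.8% lower in the stroma, and the median change was 2.00 over the members and −0.35 over all probe sets, on the log2 scale. The members' median lay within the range of the medians of the 4 marker lists of vessels, leukocytes, mast cells and fat, 1.96 to 2.40. It lay above the medians of the fibroblast markers, 1.46, and of the smooth muscle and pericyte markers, 1.27. The part of any of these cells in the members' values was not tested. The split between higher and lower calls over the array depended on scaling, since 21.2% of all calls were higher as deposited, 49.6% after quantile normalization and 56.8% with arrays centred on their medians. After either of these scalings all 8 members were called higher in the stroma, beside 7.98% of all probe sets after quantile normalization and 8.44% after centring.

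Zeb2, which in many tissues marks mesenchyme, neural crest and myeloid cells, was higher in the stroma of every gland. Its signal in the 18 stroma arrays was 820 at the lowest, 1736 at the median and 2795 at the highest, against 35.6, 486 and 1419 in the 18 epithelium arrays. The ranges overlapped, but 14 of 18 stroma arrays lay above every epithelium array, and the stroma was higher in 18 of 18 glands. The change was 2.23 ± 0.30 (log2, SE), a 4.70-fold higher signal (adjusted p = 2.9e-05, limma).

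Zeb1, the close paralogue of Zeb2, had signals of 484 to 1724 (median 1063) in the stroma and 22.1 to 825 (median 254) in the epithelium. The epithelium spread widely, with 7 of 18 arrays at 22.1 to 77.8 and the other 11 at 217 or more. Summed endothelial markers were 87.0 to 1717.1 on these 7 arrays and 518.1 to 5183.7 on the other 11. Summed fibroblast markers were 8457.3 to 21519.4 and 16270.2 to 33087.6, so that the ranges overlapped. The part of such cells in the Zeb1 signal was not tested. The stroma was higher in 17 of 18 glands, all but KO BPA 3, with a change of 2.47 ± 0.43 (adjusted p = 0.000421). The mean of all 4 Zeb1 probe sets gave 1.26, still called.

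Twist1, a regulator of mesoderm and of cranial and limb mesenchyme, measured 281 to 1430 (median 498) in the stroma and 0.9 to 461 (median 143) in the epithelium. Here 15 of 18 epithelium arrays lay below every stroma array, and only gland WT BPA 3 was not higher in the stroma, its signals being 340.7 in stroma and 343.7 in epithelium. The change was 2.49 ± 0.48 (adjusted p = 0.00104). Twist2, known from dermal and other connective tissue progenitors, measured 103 to 1089 (median 316) in the stroma and 45.9 to 346 (median 105) in the epithelium. Its ranges overlapped too, with 9 of 18 epithelium arrays below every stroma array and 9 of 18 stroma arrays above every epithelium array. The stroma was higher in 16 of 18 glands (change 1.73 ± 0.29, adjusted p = 0.000309).

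Prrx1, a homeodomain factor of limb and craniofacial mesenchyme and of fibroblasts, measured 220 to 1796 (median 610) in the stroma and 6.7 to 916 (median 242) in the epithelium. The stroma was higher in 16 of 18 glands, the exceptions being KO EE2 1 and WT EE2 2, and the change was 1.76 ± 0.39 (adjusted p = 0.00274). Prrx2, its paralogue, was dim, with a signal of 10.1 at the lowest and 42.3 at the median of the stroma, where 1 of 18 arrays reached 100, and 0.5 to 49.3 (median 4.15) in the epithelium. It was nonetheless higher in the stroma of 18 of 18 glands, with a change of 3.01 ± 0.46 (adjusted p = 9.8e-05). Its size rests on low signals, since it was 1.15 when 16 was added to every signal before log2.

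Neither snail gene was called. Snai1 did not reach a signal of 100 on any of the 36 arrays, and measured 1.3 to 67.8 (median 25.3) in the stroma and 0.3 to 42.9 (median 9.55) in the epithelium. Its change of 1.48 ± 0.53 missed the threshold (adjusted p = 0.0532), although 15 of 18 glands were higher in the stroma. Snai2 was bright in both compartments, 302 to 5985 (median 3012) in the stroma and 17.7 to 4097 (median 1610) in the epithelium, with 17 of 18 epithelium arrays at 100 or more. Its change of 1.00 ± 0.44 was not called (adjusted p = 0.117), 13 of 18 glands being higher in the stroma. Whether the snail genes differed from the other members in their change was not tested.

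**Figure D1:**
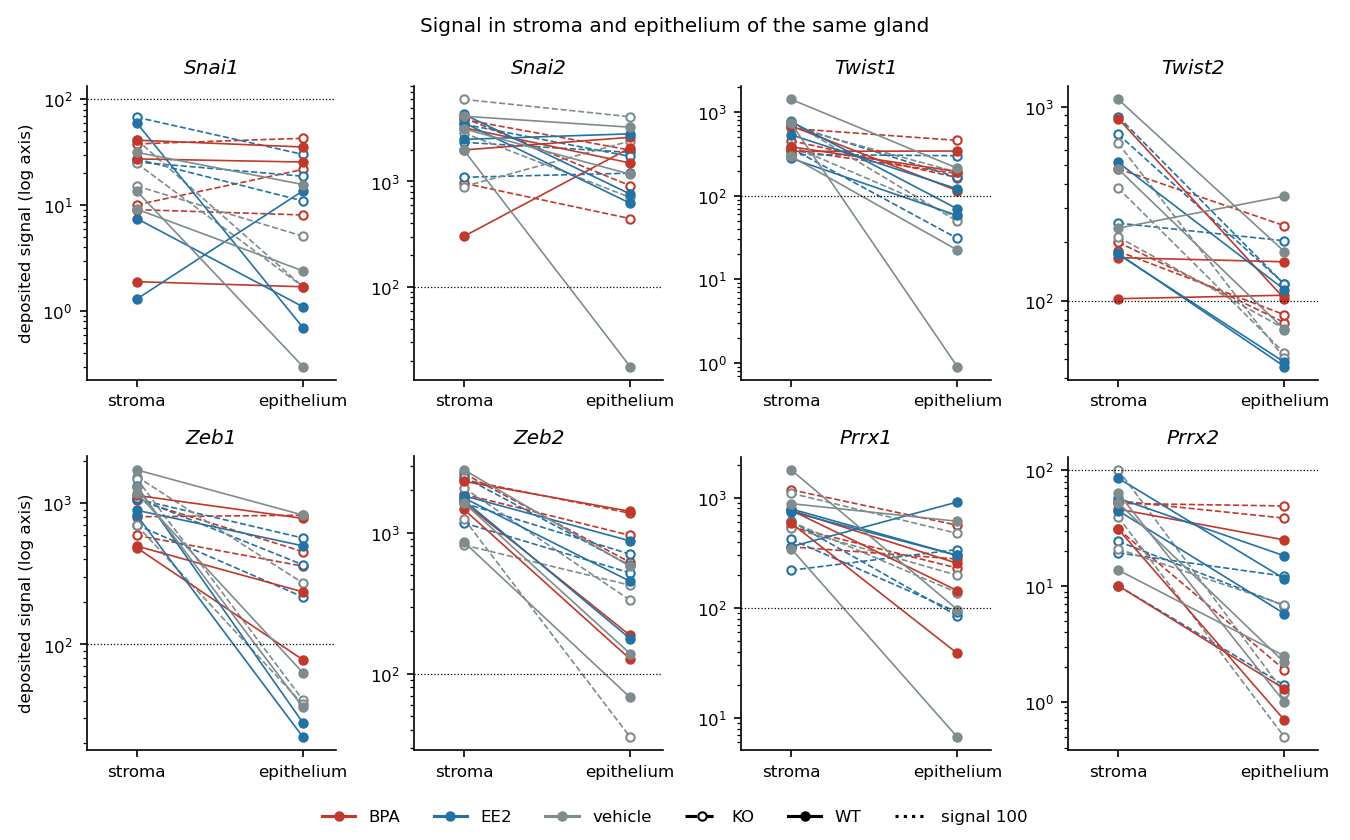
Deposited signal of each member (log axis) in stroma (left) and epithelium (right), with a line for each of 18 glands, coloured by exposure and with open points and dashed lines for KO. Most lines fall to the right for each member, also for Snai1 (15 of 18 glands) and Snai2 (13 of 18). Snai1 stays below the dotted line at a signal of 100, and Prrx2 reaches it on 1 array only.

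The genes with several probe sets could be compared with themselves. All 5 Zeb2 probe sets were called higher in the stroma, with changes of 2.02 to 2.44, and all 6 Prrx1 probe sets likewise, with changes of 1.30 to 2.45. For Zeb1, 3 of 4 probe sets were called higher (1.25 to 2.47), and the exception had −0.76 ± 0.49 at a mean signal of only 2.78 and was not called. The 2 probe sets of Snai2 gave 1.00 and 0.29 and neither was called. The brighter one has no accession in the annotation and the suffix of its name marks probes that may also match other transcripts, so that its level is uncertain as a level of Snai2. Across the 36 arrays the brightest probe set correlated with the others of its gene at r = 0.61 to 0.91 for Zeb2, 0.60 to 0.73 for Prrx1, −0.18 to 0.69 for Zeb1 and 0.55 for Snai2.

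**Figure D2:**
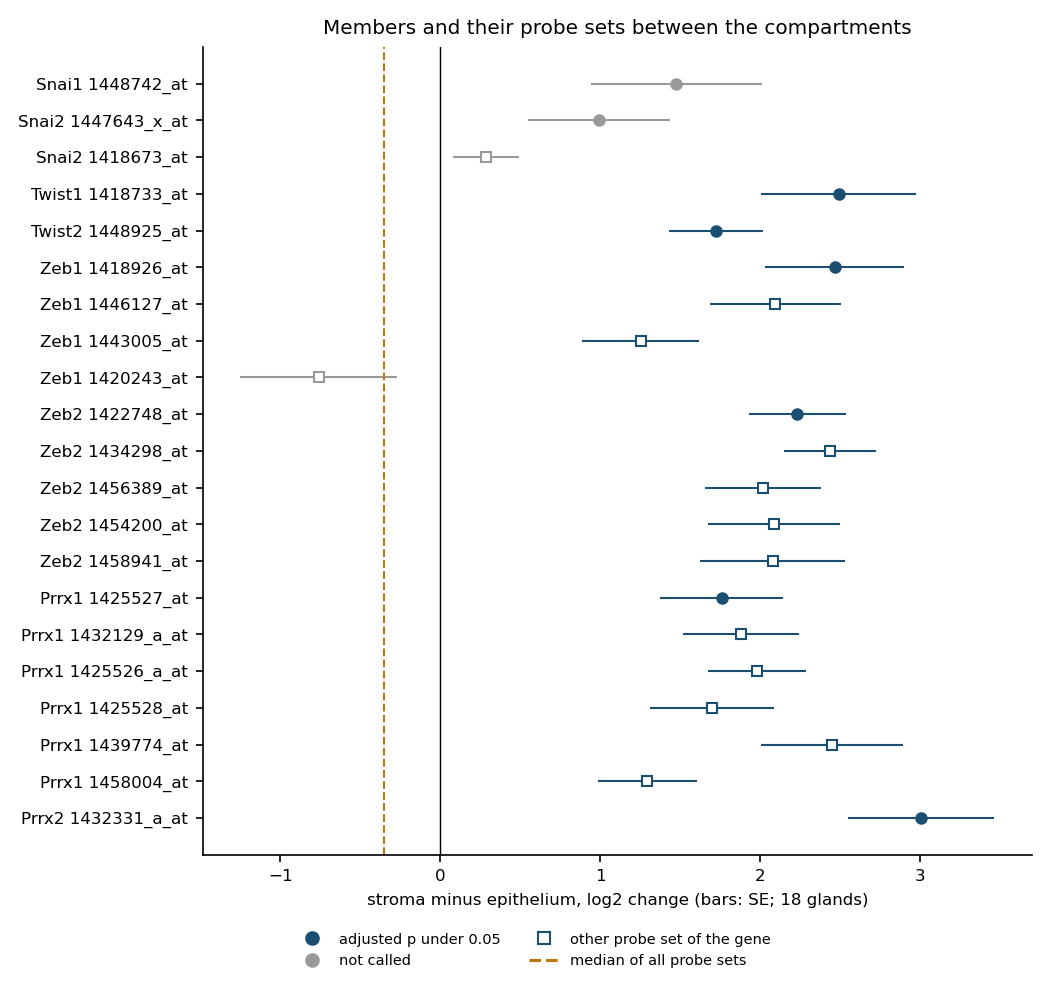
Stroma minus epithelium (log2 change with SE, 18 glands) for all 21 probe sets of the 8 genes, filled circles standing for the gene, open squares for its other probe sets and grey for not called. The 5 Zeb2 and 6 Prrx1 probe sets lie together to the right of 0, whereas the 2 Snai2 probe sets and 1 dim Zeb1 probe set are grey.

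The same difference was then taken within each exposure, with KO and WT together. In BPA glands none of the 8 members was called higher in the stroma (0.118% of all probe sets were), in EE2 glands Zeb1 alone was (0.557% of all), and in vehicle glands 6 of 8 were (1.84% of all). Without adjustment, Zeb2, Prrx1 and Prrx2 had a p under 0.05 in BPA glands, as had 2.23% of all probe sets in this direction. Within single groups of 3 glands none of the 8 was called, where 0.00222% of all probe sets were called higher in KO BPA and in WT BPA, 0.0133% in KO EE2, 0.0710% in WT EE2, 0.0687% in KO vehicle and 0.0643% in WT vehicle. Twist1 measured 341 to 689 in BPA stroma and 115 to 461 in BPA epithelium, so that the ranges overlapped, and its change was 1.07 ± 0.72 (adjusted p = 0.402). In vehicle glands Twist1 measured 297 to 1430 (median 705) in the stroma and 0.9 to 214 (median 52.4) in the epithelium, without overlap, and its change was 4.13 ± 0.72 (adjusted p = 0.00648). It was 3.06 without gland WT vehicle 2, whose epithelium array had the 0.9, and 4.79 without WT vehicle 3, and was called in both cases. Zeb1 changed by 1.03 ± 0.63 in BPA glands (adjusted p = 0.358), by 2.64 ± 0.63 in EE2 glands (adjusted p = 0.0311) and by 3.73 ± 0.63 in vehicle glands (adjusted p = 0.00594). With the mean of its 4 probe sets Zeb1 was called neither in EE2 glands (1.43, adjusted p = 0.0922) nor in vehicle glands (1.60, adjusted p = 0.0699). Its call in EE2 glands was also lost without any one of the glands WT EE2 2, WT EE2 3, KO EE2 1, KO EE2 2 or KO EE2 3, at 2.21 to 2.75 and adjusted p of 0.0762 to 0.109. Zeb2 had 1.87 ± 0.52 in BPA glands, 1.79 ± 0.52 in EE2 glands and 3.04 ± 0.52 in vehicle glands, the adjusted p being 0.0668 in BPA glands.

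The exposures were not shown to differ in this respect. The difference between BPA and vehicle in the compartment change was −3.06 ± 1.02 for Twist1, −2.71 ± 0.89 for Zeb1, −3.19 ± 1.25 for Snai1 and −2.24 ± 1.05 for Prrx2, with unadjusted p of 0.00832, 0.00782, 0.0211 and 0.0484, and all adjusted p for the 8 members were 0.549 or more. The unadjusted test was passed in this direction by 7.08% of all probe sets, whose median was −0.51. After quantile normalization Twist1 (−2.37) and Zeb1 (−2.04) still passed it by limma, with an adjusted p of 0.939 and 0.953, but Snai1 (−2.75) and Prrx2 (−1.73) did not. For EE2 against vehicle Prrx2 alone passed the unadjusted test (−2.42 ± 1.05, adjusted p = 0.638 by limma), as did 6.56% of all probe sets in this direction. For KO against WT no member passed it, where 4.41% of all probe sets did. The count of calls in EE2 glands depended on processing, being 4 of 8 after quantile normalization, when Twist1, Twist2, Zeb1 and Zeb2 were called, and Zeb2 was also called in BPA glands by that route. Without any single one of the 6 vehicle glands the count in vehicle glands was 4 or 5, Twist2, Prrx1 or both being lost.

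The next question was whether exposure changed the members within a compartment. In the epithelium no member was called between BPA and vehicle, nor was any of the 45101 probe sets. Without adjustment Snai1, Twist1 and Zeb2 had a p under 0.05 as deposited. Zeb2 measured 127 to 1419 (median 788) in BPA epithelium and 35.6 to 578 (median 236) in vehicle epithelium, with 6 arrays each. The ranges overlapped, and the change was 1.66 ± 0.75 (unadjusted p = 0.0430, adjusted p = 0.271, limma). Twist1 measured 115 to 461 (median 190) in BPA epithelium and 0.9 to 214 (median 52.4) in vehicle epithelium, a change of 2.59 ± 0.99 (unadjusted p = 0.0194, adjusted p = 0.232). The change was 1.55 without array WT vehicle 2 and 3.52 without WT vehicle 3. Snai1, dim throughout, measured 1.7 to 42.9 (median 23.7) in BPA epithelium and 0.3 to 15.7 (median 2.05) in vehicle epithelium, a change of 2.68 ± 1.01 (unadjusted p = 0.0175, adjusted p = 0.229). Both medians lie below the array medians of these groups, and the change was 0.84 with 16 added to every signal.

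These 3 members of 8 stood beside 17.3% of all probe sets that passed the same unadjusted test in the same direction (0.390% in the other). Both the count of 3 members and that skew changed with the scaling. After quantile normalization Twist1 alone passed the unadjusted test (1.87, adjusted p = 0.589 by limma), the change being 1.96 for Snai1 and 1.01 for Zeb2, while 1638 probe sets passed upwards and 2170 downwards. After centring no member did. All 8 members were above 0 in this comparison as deposited, with a median of 1.77 against 0.68 over all probe sets, but Twist2 and Prrx1 were below 0 after quantile normalization and Snai2 also with arrays centred on their medians. The array median was 50.6 in BPA epithelium and 31.3 in vehicle epithelium (medians over 6 arrays). The ratio of 3′ to 5′ Gapdh signal was 5.09 to 8.77 (mean 7.19) in BPA epithelium and 8.56 to 12.6 (mean 10.6) in vehicle epithelium. The summed fibroblast markers measured 17522 to 33088 (median 24624) in BPA epithelium and 8457 to 32774 (median 13500) in vehicle epithelium, 11 of the 12 markers being above 0 in this comparison. The 10 endothelial markers were all above 0, with a median change of 2.39. The part of these in the members' values was not tested. The BPA array with the highest Zeb2 (1419), WT BPA 1, had a fibroblast sum of 31820.5 and the highest endothelial sum of the epithelium, 5183.7. The BPA array with the highest Zeb1 (822.8), KO BPA 3, had the highest fibroblast sum of the epithelium, 33088. The vehicle array with the highest Zeb1 (825) and Zeb2 (578), WT vehicle 3, also had the highest fibroblast sum of the vehicle epithelium, 32774. Its summed markers of keratinised epidermis were 12188, and 17625.5 in the stroma of equal number, against at most 640.8 on any other array. Its smooth muscle and pericyte sum, 8463, and basal epithelium sum, 4220, were the highest of the epithelium. The part of such tissue in the members' values was not tested.

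For EE2 against vehicle in the epithelium no member was called either, and 1 probe set of the array was (0.00222%). Prrx2 measured 1.4 to 18.3 (median 9.20) in EE2 epithelium and 0.5 to 6.9 (median 1.70) in vehicle epithelium, a change of 2.10 ± 1.01 (unadjusted p = 0.0537, limma). Both medians lie below the array medians of these groups, 38.75 and 31.3. The size of the Prrx2 change rests on such low signals and was 0.44 to 2.63 over the alternative settings. Zeb2 measured 178 to 876 (median 553) in EE2 epithelium, against 35.6 to 578 in vehicle epithelium, a change of 1.52 ± 0.75 (unadjusted p = 0.0617, adjusted p = 0.575). The median over the members was 1.15, against 0.40 over all probe sets, and no member passed the unadjusted test, which 8.15% of all probe sets passed upwards and 0.729% downwards. This skew changed with the scaling, since 1542 probe sets passed the unadjusted test upwards and 1713 downwards after quantile normalization. Between BPA and EE2 no member passed it in the stroma (2.94% upwards, 0.807% downwards over all) or in the epithelium (3.65% and 0.570%).

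In the stroma no member was called for any exposure. For BPA against vehicle 7 of 8 were below 0, with a median of −0.49 against 0.16 over all probe sets, none passed the unadjusted test (3.19% of all probe sets upwards, 1.35% downwards), and no probe set of the array was called. Of these 7, 4 turned above 0 under some alternatives, to at most 0.18 for Snai1, 0.50 for Snai2, 0.11 for Prrx1 and 0.05 for Prrx2. Zeb1 measured 484 to 1137 (median 697) in BPA stroma and 699 to 1724 (median 1393) in vehicle stroma, a change of −0.83 ± 0.41 (unadjusted p = 0.0613, adjusted p = 0.993). Zeb2 was the exception in sign, with 1467 to 2635 (median 2097) in BPA stroma and 820 to 2795 (median 1445) in vehicle stroma, a change of 0.49 ± 0.42 (unadjusted p = 0.259). For EE2 against vehicle the changes were −0.67 to 0.27, with a median of −0.27 against 0.00 over all probe sets, and again none passed the unadjusted test (1.90% and 2.62%).

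Between KO and WT no member was called, and over all probe sets 0.00222% were called higher in KO stroma and none in KO epithelium. In the stroma KO minus WT was −0.35 to 1.00, with a median of −0.01 against 0.14 over all probe sets and none past the unadjusted test (2.91% upwards, 0.907% downwards over all), the largest being that of the dim Snai1 (9.1 to 67.8 in KO stroma, 1.3 to 59.9 in WT stroma). For Zeb2 KO stroma measured 820 to 2635 (median 1878) and WT stroma 860 to 2795 (median 1706). In the epithelium KO minus WT was −0.12 to 1.32, with a median of 0.61 against 0.38 over all probe sets, and no member had an unadjusted p under 0.05 (7.86% upwards, 0.324% downwards over all). That skew over all probe sets changed with the scaling, with 1033 upwards and 1428 downwards after quantile normalization. The effects of BPA and EE2 were not shown to differ between KO and WT in either compartment, where 0 of 8 members and 0 of all probe sets were called. Of these differences that of EE2 for Twist2 in the epithelium alone passed the unadjusted test (2.69, adjusted p = 0.751 by limma), where 4.95% of all probe sets passed in this direction.

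**Figure D3:**
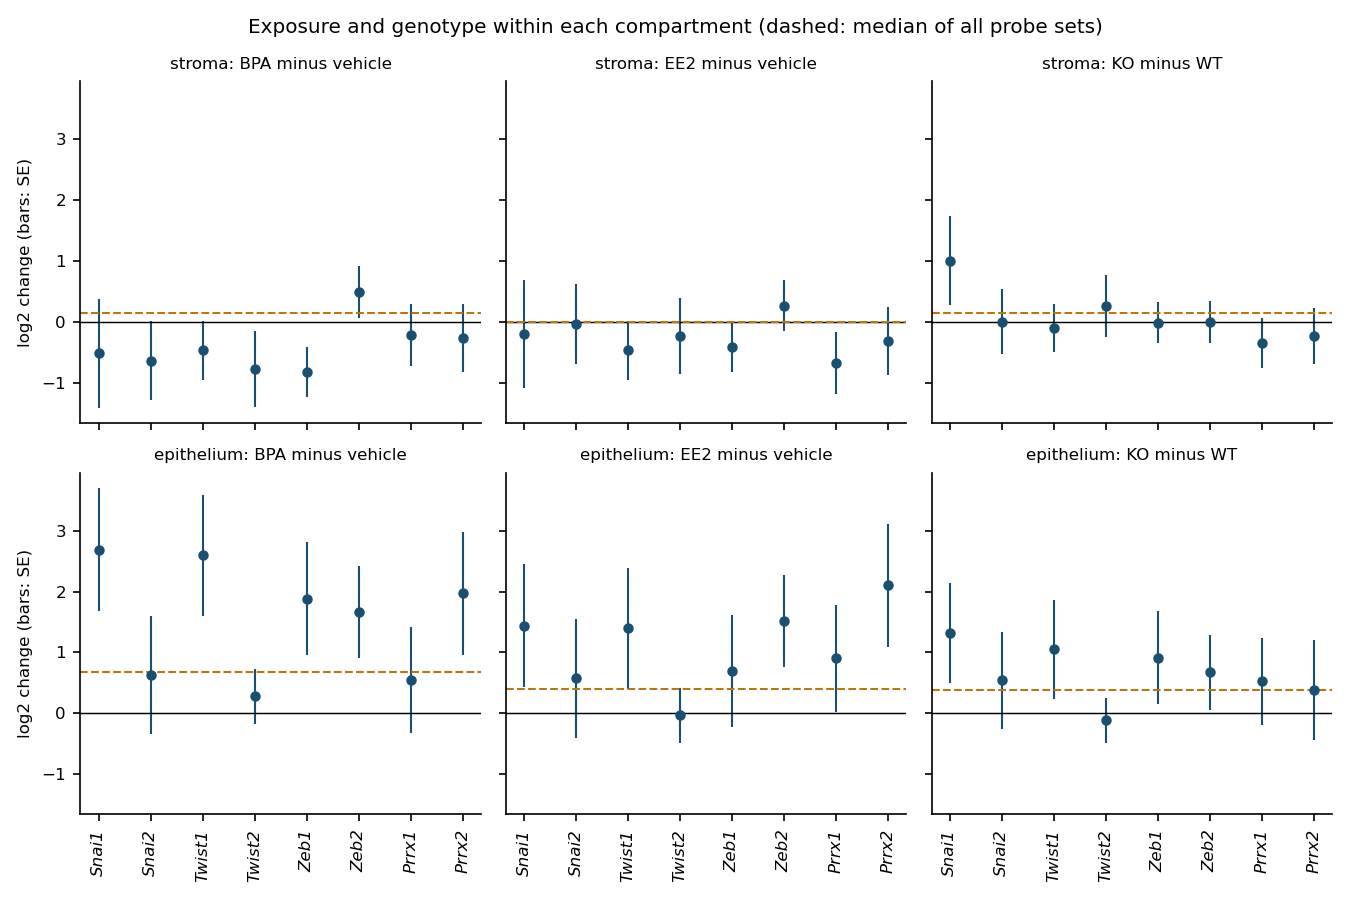
Log2 changes with SE of the 8 members for BPA minus vehicle, EE2 minus vehicle and KO minus WT, in stroma (top) and epithelium (bottom), the dashed line being the median of all probe sets. Stromal changes over the 3 contrasts lie at −0.83 to 1.00, and the epithelial changes for BPA lie at 0.28 to 2.68, none of them called.

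The 12 groups were ordered by the mean of their 3 arrays. For each member every pair of neighbours in that order had overlapping ranges. The 6 stroma groups took the first 6 places for Twist1, Twist2, Zeb1 and Zeb2, 5 of those places for Snai2, Prrx1 and Prrx2, and 4 for Snai1. For Zeb2, WT EE2 stroma had 1831, 1767 and 1706, the group with the lowest SD, and WT BPA epithelium had 1419, 187 and 127. For Zeb1, WT EE2 epithelium had 499, 22.1 and 27.9, and KO BPA epithelium had 454, 359 and 823.

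**Figure D4:**
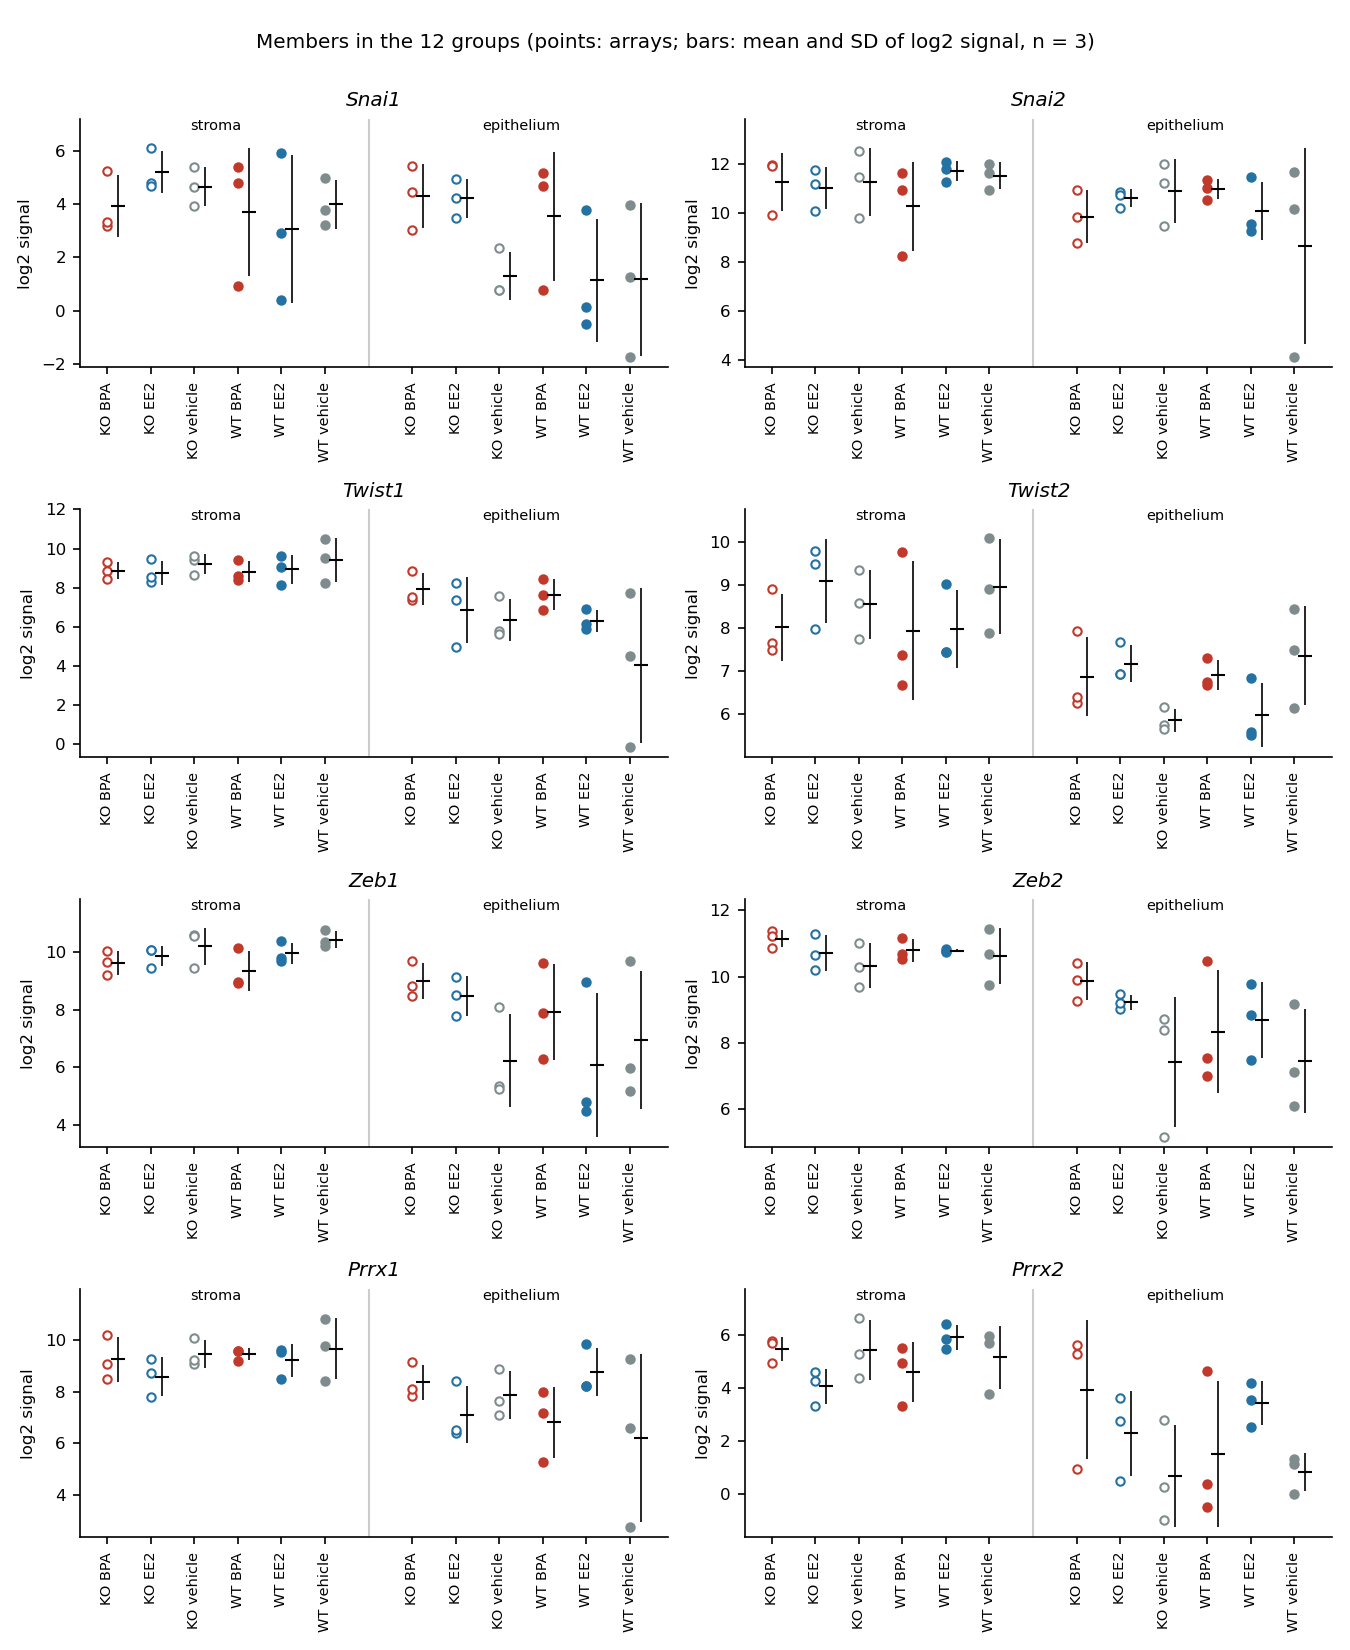
Log2 signal of the 8 members in the 12 groups, each point an array and the bar the mean with SD (n = 3), stroma on the left and epithelium on the right of each panel, open points KO and filled points WT. For Twist1, Zeb1 and Zeb2 the stroma groups hold the first 6 places, and epithelium arrays of a group can lie far apart, with Twist1 in WT vehicle at 22.4, 0.9 and 214.

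The genes these factors act on and with were described from 5 lists. Among 20 epithelial genes known as targets of the factors or as markers lost in the transition, 19 were called lower in the stroma and 0 higher, with a median change of −3.02 (Muc1, −0.15, was not called). Cdh1, encoding E-cadherin, changed by −4.15 ± 0.27 (adjusted p = 6.22e-09), Ocln by −4.12 ± 0.39, Cldn7 by −3.54 ± 0.34, Epcam by −3.22 ± 0.30 and Crb3, whose promoter with 3 E-boxes is printed above, by −2.17 ± 0.67 (adjusted p = 0.0253). With arrays centred on their medians Crb3 was not called (−1.76, adjusted p = 0.0680), and of the list 16 genes were, or 17 after quantile normalization. Of 12 regulators that hold the epithelial state, 10 were lower, among them the splicing factor Esrp1 (−5.16 ± 0.43), the grainyhead factors Grhl2 (−2.99 ± 0.34) and Grhl3 (−3.40 ± 0.36) and Ovol2 (−2.42 ± 0.49), a zinc-finger repressor of Zeb1. Klf4, a factor of differentiated epithelia that vessels and myeloid cells also use, was the 1 regulator that was higher, by 1.71 ± 0.27 (adjusted p = 0.000147). After either scaling 7 regulators were called lower and 1 higher.

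Of 22 mesenchymal genes raised in the transition 16 were higher in the stroma and none was lower, with a median of 1.18. Fap, a fibroblast protease, changed by 2.90 ± 0.41, the cadherin Cdh11 by 2.90 ± 0.59, the collagen crosslinker Lox by 2.69 ± 0.38 and fibronectin (Fn1) by 1.90 ± 0.30. Vimentin (Vim), the intermediate filament most used as a marker of the transition, had 0.39 ± 0.15 and was not called (adjusted p = 0.0641), nor was N-cadherin (Cdh2), with 1.27 ± 0.48 (adjusted p = 0.0640). Both were called higher after quantile normalization (Vim 0.42, adjusted p = 0.0210, and Cdh2 1.61, adjusted p = 0.0347) and after centring, when 20 of the 22 genes were. The median over the members, 2.00, was higher than that of this list, a difference that was not tested.

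Of 24 other mesenchymal transcription factors 9 were called higher in the stroma, where 4.51% of all probe sets were, and 4 lower, a share close to the 16.8% over all probe sets. Osr2 (3.50 ± 0.55), Meox2 (2.56 ± 0.48) and Ebf1 (2.10 ± 0.30), factors of connective tissue, vessels and fat precursors, were among the higher ones. The 4 lower in the stroma were Foxc1 (−2.65 ± 0.28), Osr1 (−2.27 ± 0.30), Tbx3 (−1.84 ± 0.26), a T-box factor needed for mammary placode formation, and Msx2 (−1.63 ± 0.44), a homeobox factor of ectoderm and mesenchyme, which was not called after quantile normalization (−1.22, adjusted p = 0.0522).

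Of 22 partners and cofactors measured, 10 were lower in the stroma and 1 was higher, with a median of −0.70. Id proteins bind the partners of Twist and keep them from DNA, and they divided: Id2 (−1.53 ± 0.26, adjusted p = 0.000282) and Id4 (−1.83 ± 0.29, adjusted p = 0.00015) were lower in the stroma, Id3 (1.05 ± 0.21, adjusted p = 0.0014) was higher, and Id1 (0.35 ± 0.27) was not called. The E-protein Tcf3, a dimer partner of Twist1, was lower (−1.73 ± 0.39), and Tcf4 (0.19 ± 0.19) and Tcf12 (−0.25 ± 0.23) were not called. The corepressors Ctbp2 (−1.37 ± 0.21), Hdac1 (−0.78 ± 0.18) and Kdm1a (−1.11 ± 0.23), which snail or ZEB proteins recruit, were lower in the stroma, against a median of −0.35 over all probe sets. The count of partners called lower was 7 after quantile normalization and 6 after centring, when Hdac1 was not called (−0.37, adjusted p = 0.166) and Tcf4 was called higher (0.60, adjusted p = 0.0425). Without a call, Tcf12 and Muc1 were above 0 after both scalings. For BPA or EE2 against vehicle and for KO against WT, 0 genes of the 5 lists were called in either compartment.

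**Figure D5:**
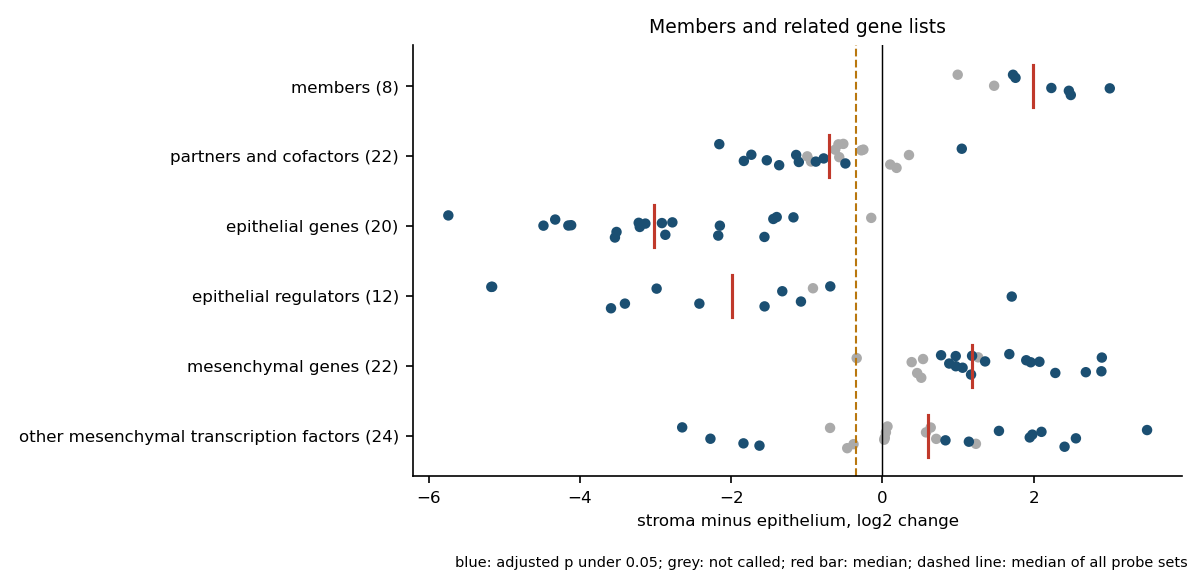
Stroma minus epithelium (log2 change, signals scaled as deposited) of the 8 members and of 5 lists of related genes, 1 point per gene, blue where called, the red bar being the median and the dashed line the median of all probe sets. Members lie at 1.00 to 3.01, epithelial genes at −5.74 to −0.15, and other mesenchymal transcription factors on both sides of 0.

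The likeness of the members to each other was taken as a correlation. Over all 36 arrays, which differ in compartment, the 28 pairs of members had a Pearson r of 0.15 to 0.82 (median 0.56) in quantile normalised log2 signal, Zeb1 with Zeb2 having the highest. Over the 18 stroma arrays alone the 28 pairs had r of −0.42 to 0.61 (median 0.00), with Twist1 and Twist2 the highest pair, and over the 18 epithelium arrays r of −0.51 to 0.62 (median 0.15). Among 8144 other genes with a mean signal of 100 or more, those most like Zeb2 over the 36 arrays were the basement membrane gene Nid1 (r = 0.94), Col3a1 (0.93) and Igfbp7 (0.93). Zeb1 was most like Nrp1 (0.90), a coreceptor of vessels and nerves, and Twist1 most like C5ar1 (0.90) and Laptm5 (0.90), which are genes of myeloid and other blood cells. Twist2 was most like the matrix gene Mfap4 (0.80) and Prrx1 like Mest (0.83). The 36 arrays share the difference between the compartments, and these r are given as a description.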

How the data were processed

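RNA of 36 laser-captured samples was amplified from about 10 ng per sample with a whole-transcriptome kit and hybridised by the authors to Affymetrix whole-genome mouse arrays. The deposited values are linear intensities, 1 per probe set, for which the submitters' processing notes name GCOS without a version. The methods describe RMA normalization and a log transform, but the deposited values are linear and their array medians differ (10.9 to 66.8), so that how this table was scaled stays unknown. Values under 0.1 (39 were 0) were set to 0.1 and log2 was taken. Of 45101 probe sets 34958 had 1 symbol, 932 several and 9211 none listed. Models were fitted with limma 3.58.1 (R 4.3.3) over all probe sets with Benjamini-Hochberg adjustment at 0.05, using 6 groups within a compartment, and between compartments with the gland as a block. Both compartments came from 1 gland according to the methods, but that equal replicate numbers mark the same gland is an assumption. Fetuses of different groups were taken as unrelated, although KO and WT fetuses of an exposure may be littermates. On simulated data made from these arrays, 89 of 100 probe sets changed by 3 on the log2 scale were recovered between compartments, 43 of 100 for BPA in the epithelium and 37 of 100 for BPA in the stroma. Of those changed by 1, 8 of 100 were recovered between compartments and 0 for BPA in either compartment. The simulation changed only 100 probe sets by each size, with noise drawn for each array apart and no shared gland. In the real arrays 2034 probe sets were called higher and 7573 lower between compartments, and the adjustment depends on such numbers. The simulated recovery between compartments therefore does not carry over to the reported calls. Precision is limited by how few arrays each group has.

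Members were named through the rule stated at the start of the results, and related genes from lists by known role. The members and lists were chosen with earlier results of these data known. Alternatives were quantile normalization, centring on array medians, 16 added before log2, a filter on signals of at least 100 in 3 arrays, array weights, a variance trend, the block, other probe sets, leaving out each replicate, and the methods' t-test. Promoters were taken from RefSeq windows (GRCm38.p6). The likeness of genes used quantile normalised log2 values.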

Additional observations from a re-analysis of the deposited data

Results flagged for a closer look

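Among 80 sets of 6 or 9 arrays examined for a value far from the rest, 6 held one. A rate of 1 in 20 would give about 4, but the sets share arrays, so this is no strict comparison. In the epithelium, Snai2 had a signal of 17.7 in WT vehicle 2, far below the next lowest array both among vehicle arrays (706) and among WT arrays (622). Twist1 had 0.9 on the same array, against 22.4 for the next lowest WT array, and this array had the lowest median of all 36 (10.9). Zeb2 had 35.6 in epithelium KO vehicle 3, against 333 for the next lowest KO array. In the stroma, Snai2 had 302 in WT BPA 2, against 1976 for the next lowest WT array, and Prrx2 had 10.1 in WT BPA 3, against 31.1 for the next lowest BPA array.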

How the results depend on the processing

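Between stroma and epithelium the count of members called higher was 6 as reported, 8 after quantile normalization or centring, 7 with 16 added or a variance trend, 5 with the filter, which Snai1 and Prrx2 did not pass, and 6 or 7 without single glands. Over all probe sets the share called higher was 4.51% as reported, 7.98% after quantile normalization and 8.44% after centring. It was 5.03% with 16 added, 4.77% with a variance trend, 8.50% of those passing the filter and 4.04% to 4.46% without single glands. Snai1 was called after quantile normalization (1.90), centring (1.89), 16 added (0.48) or a variance trend (1.48), and Snai2 after quantile normalization (1.12) or centring (1.41). Without the 2 glands that held the 3 dimmest arrays, chosen after seeing the data, the count was 6, where 4.36% of all probe sets were called higher.

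Within exposures the counts moved more. In BPA glands (0 members called) it was 1 after quantile normalization, centring, 16 added, the filter, a variance trend, or without gland WT BPA 1, 2 with array weights, and 0 to 1 without single glands (1 without WT BPA 1, KO vehicle 2 or KO vehicle 3). In EE2 glands (1 called) it was 4 after quantile normalization, centring or a variance trend, 5 with 16 added, 3 with the filter or without the 2 glands with the dimmest arrays, 2 with array weights, and 0 to 3 without single glands (3 without WT vehicle 2, 2 without WT BPA 2, KO vehicle 2 or KO vehicle 3, 0 without WT EE2 3 or any KO EE2 gland). In KO vehicle glands (0 called) it was 1 after quantile normalization, 4 with 16 added, 2 with the filter, 3 with a variance trend and 0 to 1 without single glands. In WT vehicle glands (0 called) it was 1 after centring, 3 with 16 added or the filter, 5 with a variance trend and 0 to 3 without single glands. In WT EE2 glands (0 called) it was 1 with 16 added, the filter or a variance trend, and 0 to 1 without single glands. For counts within exposures under such alternatives, here and above, no share over all probe sets is given. They therefore do not show whether the members moved apart from the whole array.

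Directions turned for uncalled values only. In BPA glands Snai1 was 0.51 after quantile normalization, 0.55 after centring and −0.24 to 0.077 without single glands, and Snai2 was −0.014 at its other probe set, −0.093 without the 2 glands with the dimmest arrays and −0.093 to 0.88 without single glands. For BPA minus vehicle in the epithelium, Twist2 was −0.37 after quantile normalization, −0.62 after centring and −0.020 to 0.55 without single arrays. Prrx1 was −0.092, −0.35 and −0.31 to 1.32 under the same settings, and −0.61 without WT BPA 1 and WT vehicle 2. Snai2 was −0.27 after centring, −0.39 without the 2 glands with the dimmest arrays, −0.59 without WT BPA 1 and WT vehicle 2, and −0.50 to 1.38 without single arrays. The cause was not tested.

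With no replicate block 6 members were called between compartments, where 3.68% of all probe sets were called higher, and 2 in EE2 glands. Stroma and epithelium of equal number correlated above 0.1 in 7 of 18 pairs (mean r = 0.0774, against −0.0384 for other numbers), and 14 of 18 arrays correlated best with their own number, a hint from the data and not the design. For exposure and genotype, where no pair of equal numbers correlated above 0.1, a replicate block gave 0 calls and 0 changes of sign. By the methods' t-test at their threshold, unadjusted, 1 member was called in the epithelium for BPA (Snai1, beside 10.5% of all probe sets), 1 for EE2 (Prrx2, 3.94%), 1 for BPA in KO (Snai1, 8.29%), 1 for EE2 in WT (Prrx2, 1.00%) and 2 for EE2 in KO (Snai1 and Twist2, 5.01%), and 1 was lower for KO minus WT in EE2 stroma (Prrx2, 1.31%). After Benjamini-Hochberg adjustment 0 were. Signals near background limit Snai1 and Prrx2, which stayed under 100 on 36 and 35 of 36 arrays. The scalings of the related gene lists were also added after seeing the data.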
